A study of Homo sapiens with 9 samples.

Results

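The mitochondrial transcription and RNA processing factors described here are 10 genes, chosen by name for what they do: POLRMT, TFAM, TFB1M, TFB2M, LRPPRC, SLIRP, PNPT1, SUPV3L1, ELAC2 and FASTKD2. All 10 were among the 60683 genes listed and among the 22672 that had enough reads to be tested. They were measured by RNA-seq in Hep3B, an established human liver cancer cell line, after 24 hours with vehicle (DMSO) at 20% O2, vehicle at 1% O2 or 32-134D at 1% O2, with 3 libraries from separate cultures in each group. 32-134D is a small-molecule inhibitor of the hypoxia-inducible factors (HIFs), the transcription factors that drive much of the response to low oxygen. No library analysed here combined 32-134D with 20% O2, so an effect of the compound at 20% O2 cannot be told apart from its effect on the hypoxic response. All cultures were of a single cell line, which limits the data to this line and to its own mitochondrial genome.

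Human mitochondria carry a small circular genome that is read from both strands into long precursor RNAs. POLRMT, the single-subunit mitochondrial RNA polymerase, starts at the promoters with TFAM, which bends and packages the DNA, and TFB2M, which melts the promoter. TFB1M, a close relative of TFB2M, is the dimethyltransferase of the small-subunit ribosomal RNA. The transfer RNAs in the precursors mark where they are cut, and ELAC2 is the nuclease that releases the 3′ ends of the transfer RNAs. The LRPPRC and SLIRP proteins form a complex that stabilizes the messenger RNAs, FASTKD2 is an RNA granule protein that acts on the large-subunit ribosomal RNA and its assembly, and the nuclease PNPT1 with the helicase SUPV3L1 degrades surplus and antisense RNA. All of these proteins are encoded in the nucleus, so the factors and the RNA that they make can be followed in the same libraries.

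The promoters are shown first because 3 genes whose levels moved in different directions, TFB1M, TFB2M and POLRMT, hold the same 8 letters. The letters GCATGCGC are a core of the site of nuclear respiratory factor 1 (encoded by NRF1), a known regulator of nuclear genes for mitochondrial proteins. In the RefSeq windows on GRCh38.p14, from 250 bases before to 50 after each start, all 10 genes were matched, in 11 windows since SLIRP has 2. The NRF1 core was found on either strand in 3 of the 11, against 3.05% of the 35116 windows in the table. In the sequences below, capitals mark the NRF1 core (GCATGCGC or its reverse complement, which overlap as GCGCATGCGC) and the ETS core (CCGGAAGT or its reverse complement). The stretches lie on the minus strand and outside annotated exons, and the sites are windows of 30 bases. The sequence letters are from RefSeq and not from these libraries.
TFB1M, chr6:155314494-155314734: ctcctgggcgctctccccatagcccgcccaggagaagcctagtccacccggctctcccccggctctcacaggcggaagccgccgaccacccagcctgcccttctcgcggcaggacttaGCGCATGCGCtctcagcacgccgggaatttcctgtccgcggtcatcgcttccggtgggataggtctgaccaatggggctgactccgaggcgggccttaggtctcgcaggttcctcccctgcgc
POLRMT, chr19:633605-633787: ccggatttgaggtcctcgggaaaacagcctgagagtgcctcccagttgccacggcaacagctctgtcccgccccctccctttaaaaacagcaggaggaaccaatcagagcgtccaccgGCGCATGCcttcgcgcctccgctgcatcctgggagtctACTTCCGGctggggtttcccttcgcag
POLRMT site near the start, chr19:633542-633571: ggcggcgcggGCGCATGCGCaggcgcgggc
TFB2M site near the start, chr1:246566262-246566291: aaggctccgctgttcGCATGCGCaggctct
ELAC2 site, chr17:13018232-13018261: gcactgtgcttCCGGAAGTcccgccccagg

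The core ended 123 bases before the start of TFB1M on the gene's strand and 8 bases before the start of TFB2M. POLRMT held it at 2 places, from 132 to 125 bases and from 24 to 15 bases before its start, the second of them readable on both strands. The ETS core, part of the site of the nuclear respiratory factor 2 (GABP) complex, was in 2 of the 11 windows, those of ELAC2 and POLRMT, against 4.14% of all windows. Of the cores of the hypoxia response element, ACGTG was in 1 window, that of TFB2M, where it lay from 45 to 49 bases after the start (21.4% of all windows). The other core, GCGTG, was in 7 windows of 6 genes, POLRMT, TFAM, TFB1M, LRPPRC, SLIRP (both windows) and PNPT1 (36.5% of all windows). Both strands were searched for every core. A match is a run of letters and not a bound site, and no binding was measured here. Only these exact letters were searched, so a window without a match may still hold a variant of the site.

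The libraries held from 6013980 to 40549699 counted reads. Levels are given in CPM, read counts scaled to a common library size, after TMM normalization, which corrects the library sizes for differences in composition. Its factors ran from 0.9007 to 1.065. Fold changes come from edgeR's quasi-likelihood model of all 9 libraries together, and p-values were adjusted by Benjamini-Hochberg over all genes tested (FDR). A gene was called higher or lower when its FDR was below 0.05 and its fold change above 1.5. The 5 HIF target genes used as controls (CA9, NDRG1, ANGPTL4, VEGFA and EPO) were all called higher in vehicle at 1% O2 than at 20% O2 and all called lower with 32-134D. Of 8 hepatocyte markers, summed levels were 16700 to 18000 CPM in vehicle at 20% O2, 11600 to 14500 in vehicle at 1% O2 and 11200 to 16600 with 32-134D. APOB alone went from 4487 ± 1077 to 405.5 ± 24.6 CPM between the vehicle groups (SD, n = 3), while ALB stood at 9284 ± 348 and 9536 ± 1083 CPM. The 6 fibroblast markers summed to 52.9 to 58.8, 23.6 to 25.2 and 49.9 to 56.3 CPM in the same order, the 5 leukocyte markers to 26.7 to 33.2, 8.43 to 11 and 13.8 to 23.2, and the 4 endothelial markers to 0.639 to 1, 0.0943 to 0.38 and 0.505 to 1.28. CD3E, VWF and KDR had no counts in any library, and the part of these marker differences in the results below was not tested. Since all cultures were of Hep3B alone, these sums are levels of the marker genes in that line and not numbers of cells of a type. A change in every cell and a change in a part of the cells cannot be told apart in such libraries. Replicate 3 of 32-134D stood apart from its group, since its counts over all genes gave chi-square values of 36.4 and 32.5 per degree of freedom against replicates 1 and 2, which gave 2 between themselves (counting error alone would give about 1). Replicate 1 of vehicle at 20% O2 gave 6.21 and 12 against replicates 2 and 3, which gave 1.62 between themselves. Replicate 1 of vehicle at 1% O2 gave 7.9 and 11.8, against 2.48 between its replicates 2 and 3. The libraries differed in depth, and the part of depth in these values was not tested. Without replicate 3 of 32-134D the counts of calls among the 10 genes were the same in each comparison. They were 3 higher and 1 lower in hypoxia, 1 and 0 with 32-134D, and 0 and 0 against vehicle at 20% O2.

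The first question was what 24 hours at 1% O2 did to the 10 genes under vehicle. TFB2M was 1.7-fold higher, SUPV3L1 1.57-fold and TFAM 1.51-fold, and these 3 genes were called higher. TFB1M was called lower, at 1.95-fold below its level at 20% O2. POLRMT was 1.33-fold higher, while ELAC2 (1.35-fold), LRPPRC (1.3-fold) and PNPT1 (1.3-fold) were lower, each with an FDR below 0.05 but short of the fold change required for a call. SLIRP and FASTKD2 had an FDR above 0.05. The calls were thus 3 higher and 1 lower of 10, against 19.5% and 20.3% of all genes tested, and with the FDR alone 4 were higher and 4 lower, against 27.9% and 25.6%. The ranges of the 3 libraries did not overlap for 8 of the 10 genes, against 60.5% of all genes tested. The median log2 fold change was -0.06 over the 10 genes and 0.001 over all genes tested.

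**Figure D1:**
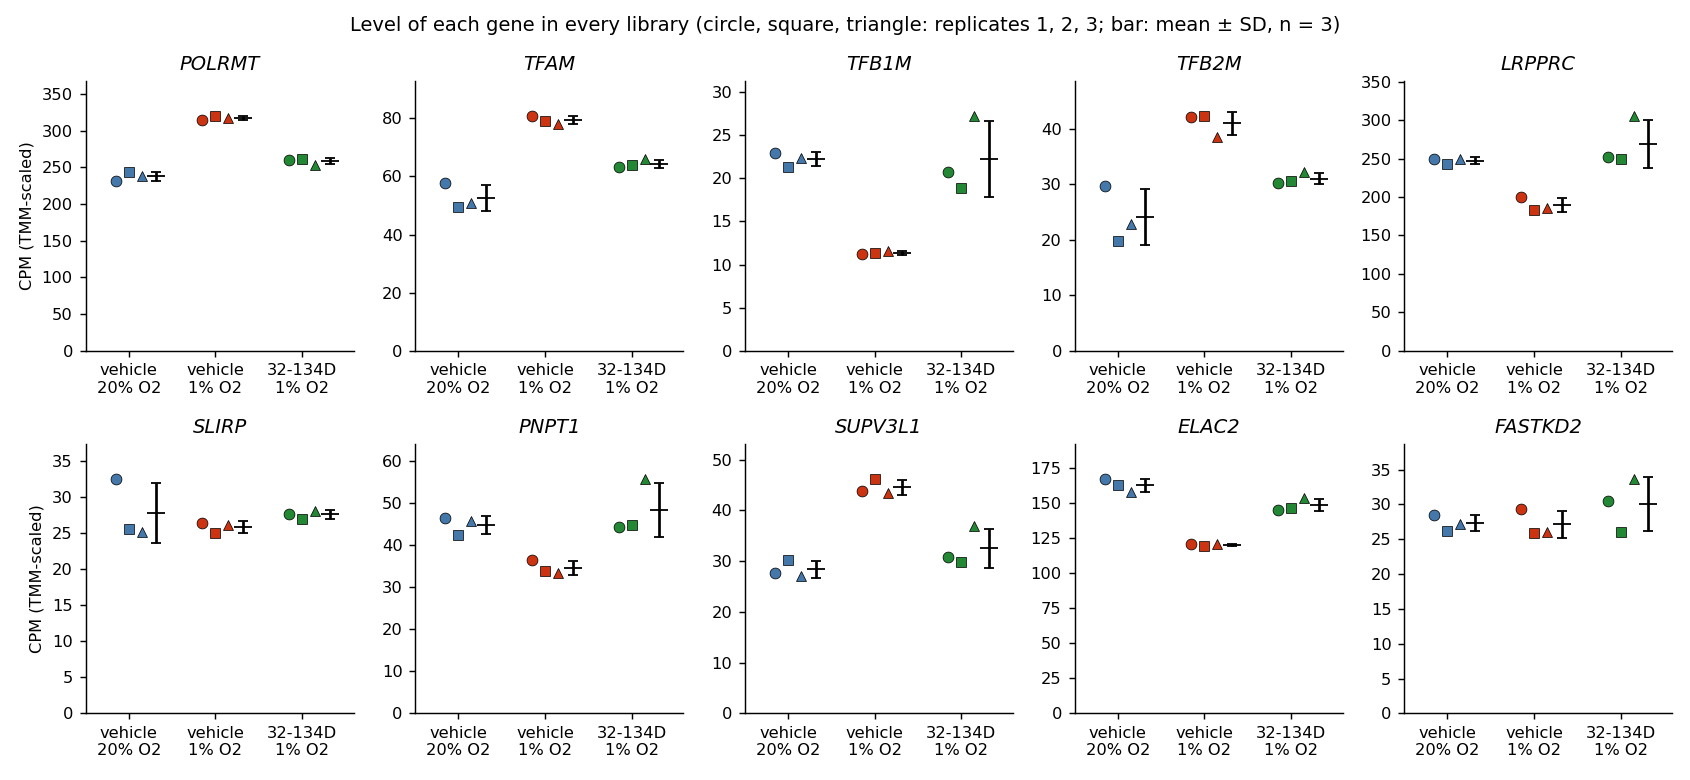
The level of each of the 10 genes in every library, in TMM-scaled CPM on axes that start at 0, with circles, squares and triangles for replicates 1, 2 and 3 and bars for the mean ± SD of 3 libraries. In the panel of TFB1M the vehicle libraries at 1% O2 sit between 11.19 and 11.62 CPM, below the 6 others, and in the panel of POLRMT they sit between 314 and 319.7 CPM, above the 6 others.

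Among the genes that start transcription, POLRMT (chr19:617224-633604, minus strand) read 231.4, 243.7 and 238.1 CPM in vehicle at 20% O2 and 314, 319.7 and 316.7 CPM at 1% O2. With 32-134D it read 260.4, 261 and 253.8 CPM. The hypoxic vehicle libraries were the highest of the 9 with no overlap, and the compound libraries lay between the 2 vehicle groups. The log2 fold change was 0.41 (SE 0.06, FDR 4.04e-05) in hypoxia and -0.29 (SE 0.06, FDR 0.00103) with 32-134D against vehicle at 1% O2.

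TFAM (chr10:58385022-58399221, plus strand), which both starts transcription and coats the mitochondrial DNA, read 57.87, 49.31 and 50.7 CPM at 20% O2, 80.74, 79.11 and 78.06 CPM at 1% O2 and 63.33, 63.86 and 65.85 CPM with 32-134D. The 3 groups did not overlap. Its increase in hypoxia (log2 0.59, SE 0.08, FDR 1.03e-05) lay at the edge of the fold change threshold, and the call was lost with DESeq2 (0.54), with RLE scaling (0.54), where each library had to hold 10 counts (0.48) and in 4 of the fits that left out 1 library (0.54 to 0.57). Those 4 were without replicate 2 of vehicle at 20% O2 (0.55), without its replicate 3 (0.55), without replicate 1 of vehicle at 1% O2 (0.57) and without replicate 1 of 32-134D (0.54). With 32-134D its level was lower by 1.23-fold than in vehicle at 1% O2 (log2 -0.30, SE 0.07, FDR 0.00352), which was short of a call.

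TFB2M and TFB1M, which descend from bacterial ribosomal RNA methyltransferases, moved in opposite directions. TFB2M (chr1:246540560-246566324, minus strand) read 29.69, 19.79 and 22.93 CPM at 20% O2, 42.07, 42.29 and 38.61 CPM at 1% O2 and 30.29, 30.57 and 32.15 CPM with 32-134D. Its normoxic libraries were the most spread, and the lowest of them rested on 126 reads. The log2 fold change was 0.75 (SE 0.12, FDR 6.04e-05) in hypoxia and -0.40 (SE 0.11, FDR 0.0075) with 32-134D.

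TFB1M (chr6:155257509-155314493, minus strand) read 22.95, 21.36 and 22.32 CPM at 20% O2, 11.19, 11.32 and 11.62 CPM at 1% O2 and 20.68, 18.89 and 27.21 CPM with 32-134D. Every hypoxic vehicle library lay below the lowest of the 6 others, and replicate 3 of 32-134D was the highest of all. The log2 fold change was -0.97 (SE 0.13, FDR 1.19e-05) in hypoxia and 0.96 (SE 0.12, FDR 1.48e-05) with 32-134D. Without replicate 3 of the compound the second value was the lowest of the fits that left out 1 library (0.80), and TFB1M was called in both comparisons under every scaling, filter and left-out library. TFB1M shares 215 exon bases (7.86% of its exon length) with TIAM2 on the other strand, and the strand setting of the counting is not given in the sources used here. TIAM2 itself stood at 25.33, 24.88 and 26.05 CPM in the 3 groups and its log2 fold changes were -0.02 (FDR 0.869) and 0.07 (FDR 0.582).

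The ratio of TFB2M to TFB1M reads within a library does not depend on the scaling between libraries. It was 1.29, 0.926 and 1.03 in vehicle at 20% O2, 3.76, 3.74 and 3.32 in vehicle at 1% O2 and 1.47, 1.62 and 1.18 with 32-134D. The ratio was chosen after the values of both genes had been seen and was given no test. On the log2 scale its group means were 0.10 ± 0.25, 1.85 ± 0.10 and 0.50 ± 0.23 (SD, n = 3), and the difference between the vehicle groups was 1.75 (1.64 to 1.88 when 1 library was left out). The 3 hypoxic vehicle libraries stood apart from the other 6.

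**Figure D2:**
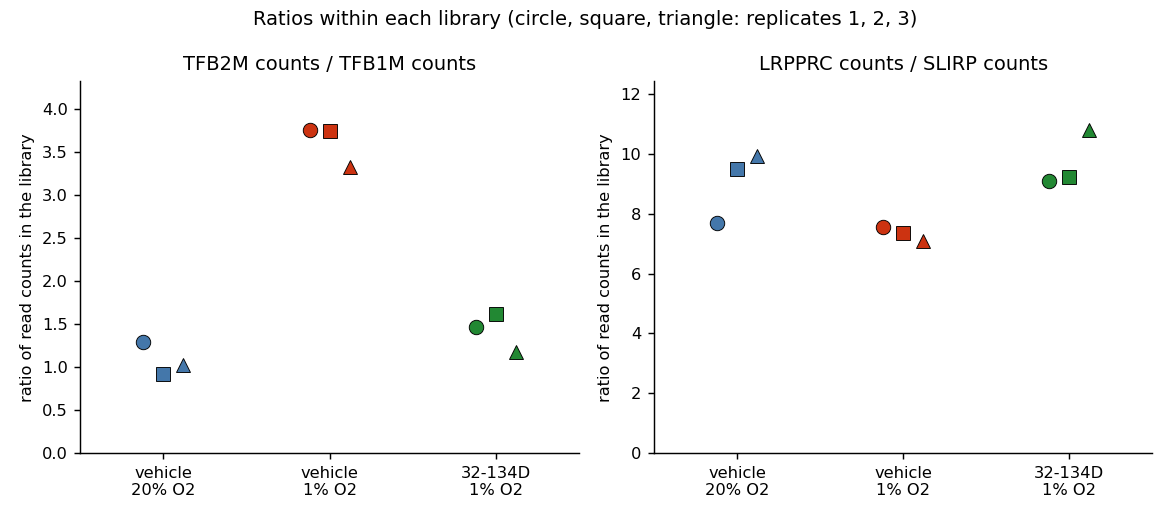
Ratio of read counts within each library, TFB2M to TFB1M on the left and LRPPRC to SLIRP on the right, with axes from 0 and circles, squares and triangles for replicates 1, 2 and 3. The left ratio is between 3.32 and 3.76 in vehicle at 1% O2 and between 0.926 and 1.62 in the other 6 libraries. The right ratio is between 7.09 and 7.55 in vehicle at 1% O2 and between 7.67 and 10.8 in the other 6.

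Among the genes that stabilize or process the transcripts, LRPPRC (chr2:43886508-43996005, minus strand), the RNA-binding partner of SLIRP, read 249.7, 242.4 and 250.1 CPM at 20% O2, 199.6, 183.7 and 185.8 CPM at 1% O2 and 252.2, 249.1 and 305.2 CPM with 32-134D. The hypoxic vehicle libraries were the lowest and did not overlap with either other group. Its log2 fold change was -0.38 (SE 0.08, FDR 0.00102) in hypoxia and 0.50 (SE 0.08, FDR 0.000127) with 32-134D. The value with 32-134D passed the threshold for a call without replicate 1 of the compound (0.61) and was 0.40 without replicate 3.

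SLIRP (chr14:77708071-77761104, plus strand), which stabilizes LRPPRC, read 32.56, 25.6 and 25.21 CPM at 20% O2, 26.45, 24.99 and 26.2 CPM at 1% O2 and 27.74, 27 and 28.17 CPM with 32-134D. The vehicle groups overlapped, and the 3 compound libraries lay just above those of vehicle at 1% O2. The log2 fold change was -0.10 in hypoxia (95% interval -0.32 to 0.12, FDR 0.418) and 0.09 with 32-134D (95% interval -0.12 to 0.31, FDR 0.472), so a change past the fold threshold lay outside both intervals. SLIRP shares 118 exon bases (4.48%) with SNW1 on the other strand, and SNW1 was called higher in hypoxia (log2 1.20, FDR 2.37e-09) and lower with 32-134D (-0.84, FDR 1.62e-07). It also shares 275 exon bases (10.45%) with C14orf178 on its own strand, which had at most 1 read in any library. How many reads the overlaps passed from one gene to the other was not tested.

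The LRPPRC and SLIRP proteins are found together, so the ratio of their reads was compared with an exact permutation test, 2-sided, whose smallest possible p was 0.1 with 3 libraries against 3. The ratio was 7.67, 9.47 and 9.92 at 20% O2, 7.55, 7.35 and 7.09 at 1% O2 and 9.09, 9.22 and 10.8 with 32-134D. On the log2 scale the mean was 2.87 ± 0.05 in vehicle at 1% O2, 3.16 ± 0.20 in vehicle at 20% O2 and 3.28 ± 0.14 with 32-134D (SD, n = 3). The difference was -0.29 in hypoxia and 0.40 with 32-134D (each exact permutation p = 0.1, adjusted p = 0.15 over 3 comparisons), and 0.11 between 32-134D and vehicle at 20% O2 (exact permutation p = 0.6, adjusted p = 0.6).

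PNPT1 (chr2:55634265-55693910, minus strand), the nuclease polynucleotide phosphorylase, read 46.32, 42.4 and 45.68 CPM at 20% O2, 36.55, 33.71 and 33.46 CPM at 1% O2 and 44.39, 44.64 and 55.7 CPM with 32-134D. The hypoxic libraries were the lowest with no overlap. Its log2 fold change was -0.38 (SE 0.10, FDR 0.00397) in hypoxia and 0.48 (SE 0.09, FDR 0.000688) with 32-134D, where it too passed the fold threshold without replicate 1 of the compound (0.59) and was 0.36 without replicate 3.

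SUPV3L1 (chr10:69180232-69209099, plus strand), the helicase that works with that nuclease, moved the other way. It read 27.75, 30.31 and 27.01 CPM at 20% O2, 43.84, 46.2 and 43.52 CPM at 1% O2 and 30.8, 29.83 and 36.95 CPM with 32-134D. The hypoxic vehicle libraries were the highest, with replicate 3 of the compound next. The log2 fold change was 0.66 (SE 0.10, FDR 3.05e-05) in hypoxia and -0.45 (SE 0.09, FDR 0.000787) with 32-134D. The call in hypoxia was lost where each library had to hold 10 counts (0.55).

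ELAC2 (chr17:12992391-13018187, minus strand), the nuclease that trims the 3′ ends of transfer RNAs, read 167, 162.7 and 157.6 CPM at 20% O2, 120.7, 119.1 and 120.3 CPM at 1% O2 and 145.2, 146.3 and 153.2 CPM with 32-134D. The 3 groups did not overlap, and the compound group lay between the vehicle groups. The log2 fold change was -0.44 (SE 0.06, FDR 3.45e-05) in hypoxia and 0.30 (SE 0.06, FDR 0.00101) with 32-134D.

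FASTKD2 (chr2:206765357-206792509, plus strand), which binds the large-subunit ribosomal RNA and the ND6 messenger RNA, read 28.54, 26.22 and 27.13 CPM at 20% O2, 29.37, 25.93 and 26.06 CPM at 1% O2 and 30.46, 25.99 and 33.66 CPM with 32-134D. All pairs of groups overlapped. Its log2 fold change was -0.01 in hypoxia (95% interval -0.23 to 0.21, FDR 0.943) and 0.14 with 32-134D (95% interval -0.07 to 0.36, FDR 0.267). FASTKD2 shares 191 exon bases (3.14%) with MDH1B on the other strand, which had at most 12 reads in any library.

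The second question was how the 10 genes stood with 32-134D at 1% O2 against vehicle at 1% O2. TFB1M was called higher, at 1.96-fold, and none was called lower, against 16.2% higher and 13.7% lower of all genes tested. With the FDR alone 4 genes were higher (TFB1M, LRPPRC at 1.42-fold, PNPT1 at 1.4-fold and ELAC2 at 1.23-fold), against 21.9% of all genes. By the same rule 4 were lower, against 25.5% (SUPV3L1 by 1.37-fold, TFB2M by 1.32-fold, POLRMT and TFAM by 1.23-fold each). Library ranges did not overlap for 9 of the 10 genes, all but FASTKD2, against 56.1% of all genes tested. The median log2 fold change was 0.12 over the 10 genes and -0.01 over all genes tested. This comparison and the first share the 3 libraries of vehicle at 1% O2, so their values are given side by side and no relation between them was tested. Replicate 3 of 32-134D was the highest of its group for TFAM, TFB1M, TFB2M, LRPPRC, SLIRP, PNPT1, SUPV3L1, ELAC2 and FASTKD2.

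The third question was whether 32-134D at 1% O2 differed from vehicle at 20% O2. None of the 10 genes was called higher or lower, against 3.0% and 0.516% of all genes tested. With the FDR alone TFAM was higher (log2 0.29, SE 0.08, FDR 0.0276), 1 of 10 against 7.81% of all genes tested, and no gene was lower (2.44%). Its FDR ran from 0.00434 to 0.123 over the alternatives tried. The ranges did not overlap for POLRMT, TFAM, TFB2M and ELAC2, 4 of 10 against 29.8% of all genes tested. TFB2M had a log2 fold change of 0.35 (FDR 0.0781), and its FDR ran from 0.00405 to 0.264 over the alternatives. Without replicate 1 of vehicle at 20% O2 its log2 fold change was 0.52 (FDR 0.00405). In the fit of all libraries TFB1M had a log2 fold change of -0.01 (FDR 0.99).

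**Figure D3:**
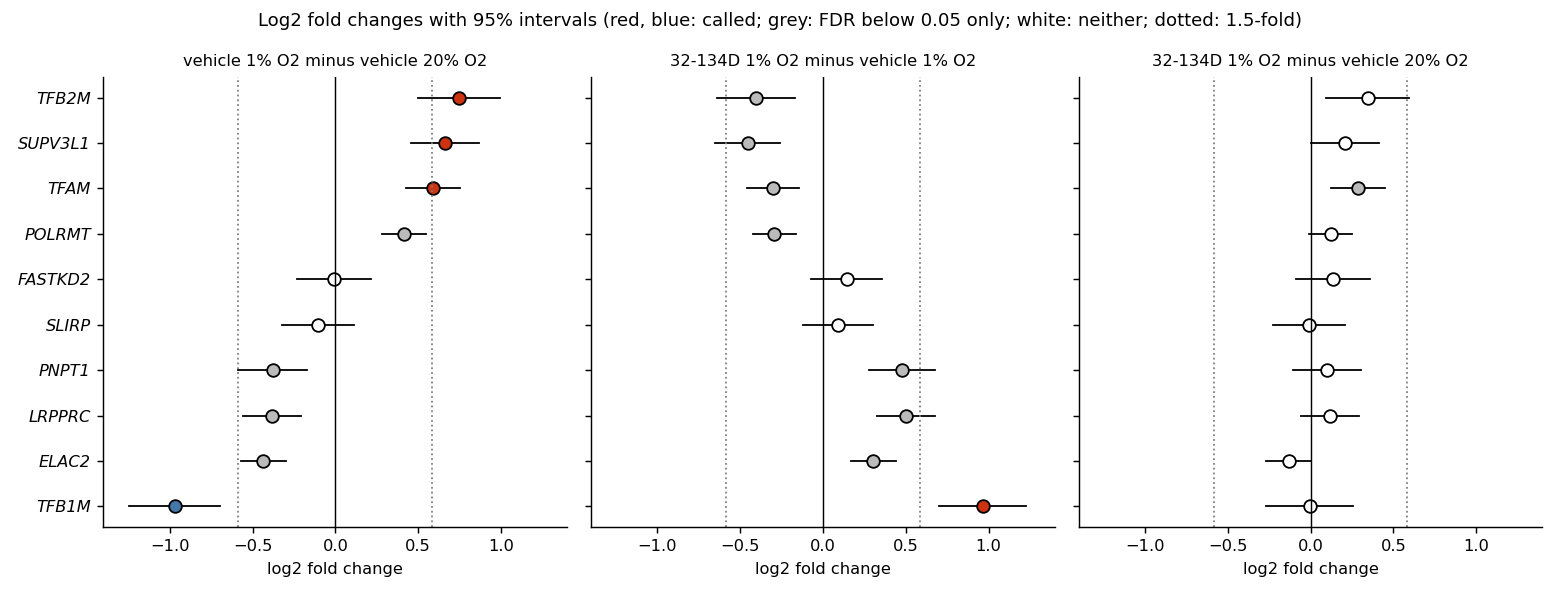
Log2 fold changes of the 10 genes with 95% intervals in the 3 comparisons, with dotted lines at 1.5-fold, red and blue for called genes, grey for an FDR below 0.05 alone and white for neither. TFB2M, SUPV3L1 and TFAM are red and TFB1M is blue in the first panel, TFB1M is red in the second, and no gene is called in the third.

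The scaling between libraries set how many genes passed the fold threshold. When libraries were scaled by their total counts alone, the median of all genes tested shifted by -0.21 (log2) in hypoxia and by 0.18 with 32-134D, and the share of calls that were higher went from 49% to 34.5% in hypoxia and from 54.2% to 72% with 32-134D. Under upper quartile scaling the shifts were -0.19 and 0.12 and the shares 35.7% and 66.1%, and against vehicle at 20% O2 the share went from 85.3% to 68.4%. Under both scalings TFAM, TFB2M and SUPV3L1 were no longer called higher in hypoxia. Relative to the median of all genes, the changes in hypoxia under total library size were 0.74 for TFB2M, 0.66 for SUPV3L1, 0.58 for TFAM, 0.41 for POLRMT, -0.44 for ELAC2, -0.39 for LRPPRC, -0.38 for PNPT1 and -0.97 for TFB1M. With 32-134D, the FDR of POLRMT (0.177), TFAM (0.25) and TFB2M (0.139) reached its highest value, above 0.05, under total library size. ELAC2, LRPPRC and PNPT1 were called lower in hypoxia under total library size (-0.65, -0.60 and -0.59), as was ELAC2 under upper quartile scaling (-0.63). LRPPRC and PNPT1 were called higher with 32-134D under both (0.69 and 0.66, then 0.63 and 0.60). SLIRP had an FDR of 0.0202 in hypoxia and 0.0374 with 32-134D under total library size, and 0.0242 in hypoxia under upper quartile scaling. FASTKD2 had one of 0.0182 and 0.0424 with 32-134D under the 2 scalings and of 0.0485 where each library had to hold 10 counts.

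**Figure D4:**
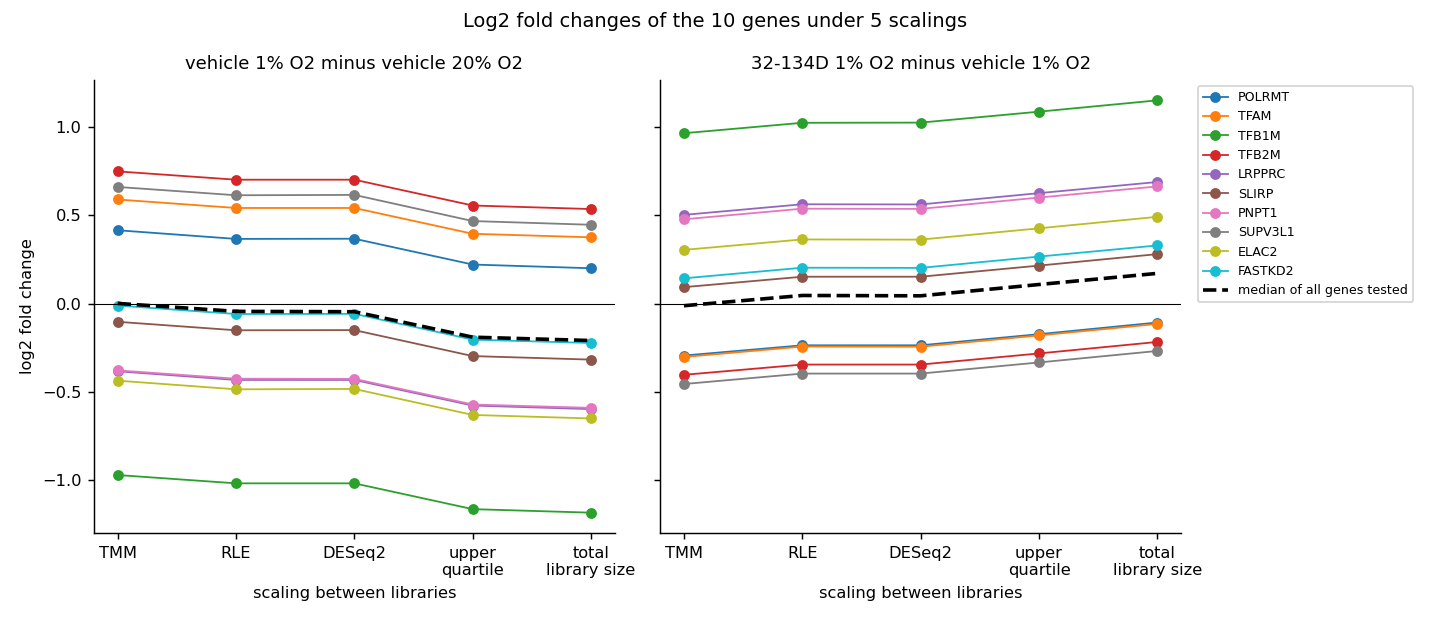
Log2 fold changes of the 10 genes under 5 scalings of the libraries, in hypoxia on the left and with 32-134D on the right, with the median of all genes tested as a dashed line. The lines of the 10 genes run parallel to the dashed line, which falls to -0.21 in hypoxia and rises to 0.17 with 32-134D under total library size.

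Levels can be compared between genes only per length, here in CPM per kilobase of the exons of each gene. That length joins the exons of all annotated transcripts, 1 for TFB2M (1848 bases) but 21 for ELAC2 (6345 bases), whichever of them the cells made. The order between genes therefore depends on the annotation too, and its part was not tested. In vehicle at 20% O2 the order was POLRMT (46.4), ELAC2 (25.6), LRPPRC (25.3), TFB2M (13.1), SLIRP (10.6), TFAM (9.39), PNPT1 (8.73), TFB1M (8.12), SUPV3L1 (6.62) and FASTKD2 (4.49). The libraries of neighbours overlapped for ELAC2 with LRPPRC and along the run from TFB2M to TFB1M. In vehicle at 1% O2 TFB2M (22.2) stood second after POLRMT (61.8), and TFB1M (4.16) stood last, after FASTKD2 (4.46). With 32-134D the order began with POLRMT (50.4), LRPPRC (27.5), ELAC2 (23.4) and TFB2M (16.8), and TFB1M (8.14) stood above SUPV3L1 (7.59), with which its libraries overlapped.

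The RNA that these factors make was measured in the same libraries. The 13 mitochondrially encoded messenger RNAs summed to 30720, 31730 and 30780 CPM in vehicle at 20% O2, 21310, 21310 and 21510 CPM in vehicle at 1% O2 and 31320, 28730 and 28670 CPM with 32-134D. In the same order the 2 ribosomal RNAs summed to 6176, 5892 and 5698, then 24370, 28550 and 29150, and then 11430, 11080 and 9799 CPM. The summed messenger RNAs were lowest, and the ribosomal RNAs highest, in the 3 libraries of vehicle at 1% O2. In those libraries TFB1M, LRPPRC, PNPT1 and ELAC2 were also lowest, while POLRMT, TFAM, TFB2M and SUPV3L1 were highest. A relation between the factors and these RNAs was not tested. MT-ND4 did not share the lower level of the summed messenger RNAs, at 5887 ± 231 CPM in vehicle at 20% O2 and 6278 ± 365 CPM at 1% O2 (SD, n = 3). Of the 13 messenger RNAs 8 were called lower in hypoxia and none higher (20.3% and 19.5% of all genes tested), and 7 were called higher with 32-134D (16.2%), while both ribosomal RNAs were called higher in hypoxia and lower with 32-134D. How ribosomal RNA was treated in the library preparation is not given in the sources used here.

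Other genes of the same machinery were taken from 7 lists of 64 genes in all. Of the 64, 18 were called higher and 6 lower in hypoxia (median log2 0.24), where 19.5% and 20.3% of all genes tested were called. With 32-134D 4 were called higher and 7 lower (median -0.27), where 16.2% and 13.7% of all genes were. Against vehicle at 20% O2, 2 were called higher with 32-134D and none lower (median 0.04), where 3.0% and 0.516% of all genes were.

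Of 8 other transcription factors of mitochondria, 2 were called higher in hypoxia and 1 lower, beside 19.5% and 20.3% of all genes tested. The same shares stand beside the hypoxia counts of each list that follows, and no list was tested as a set. TEFM, the elongation factor of POLRMT, had a log2 fold change of 1.13 (FDR 8.09e-07) in hypoxia and -0.80 (FDR 2.11e-05) with 32-134D, and MTERF1, a terminator-binding protein, had 0.95 (FDR 2.04e-05) and -0.69 (FDR 0.000308). MTERF2, of the same family, went the other way (-1.02, FDR 1.46e-06, and 0.71, FDR 5.61e-05). Of 7 other genes for cleavage and 3′ ends, 2 were called higher and 1 lower in hypoxia, which were MTPAP, the mitochondrial poly(A) polymerase (0.82, FDR 4.79e-06), PDE12, a deadenylase (0.65, FDR 4.36e-06), and PRORP, the nuclease for the 5′ ends of transfer RNAs (-0.96, FDR 1.93e-05). PRORP was called higher with 32-134D (0.77, FDR 0.000147). PRORP and ELAC2, which cut the opposite ends of the same transfer RNAs, were both lower in hypoxia at an FDR below 0.05. In the list that holds PRORP, TRMT10C was higher in hypoxia (0.47, FDR 0.00387) but short of a call. HSD17B10, ANGEL2 and TRNT1 had an FDR above 0.05 in hypoxia (0.573, 0.811 and 0.25).

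Of the 5 other members of the FASTK family, 3 were called higher in hypoxia and none lower, beside 19.5% and 20.3% of all genes tested. They were FASTKD5 (1.17, FDR 3.18e-08), TBRG4 (0.69, FDR 2.67e-07) and FASTKD1 (0.60, FDR 0.000356), while FASTKD2 stood at -0.01. Of 10 other genes of the RNA granule and decay, 3 were called higher, REXO2, an oligoribonuclease (0.92, FDR 1.61e-06), GRSF1, an RNA granule protein (0.66, FDR 6.07e-07), and NGRN (0.63, FDR 2.07e-06), and DDX28, a helicase, was called lower (-0.96, FDR 2.61e-06).

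Of 9 genes that modify the ribosomal RNAs, 3 were called higher in hypoxia and none lower, beside 19.5% and 20.3% of all genes tested. They were MRM3 (1.05, FDR 9.31e-08), NSUN4 (0.89, FDR 1.27e-07) and METTL15 (0.74, FDR 3.68e-05), each a methyltransferase, as TFB1M is. Of 13 that modify transfer RNAs, 4 were called higher and 2 lower in hypoxia. ALKBH1 (1.72, FDR 2.27e-09) and YRDC (1.45, FDR 5.57e-08) changed most among those named, and both remained above vehicle at 20% O2 with 32-134D (0.71, FDR 0.000339, and 0.84, FDR 0.00026). Of 12 genes for mitochondrial DNA, 1 was called higher, TOP3A, a topoisomerase (0.61, FDR 5.47e-06), and 1 lower, RNASEH1, which removes RNA from RNA-DNA hybrids (-1.35, FDR 1.95e-07, and 1.30 with 32-134D, FDR 4.58e-07).

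Of 10 nuclear regulators of mitochondrial genes, 5 were called higher and 1 lower in hypoxia, and 1 higher and 4 lower with 32-134D, beside the same shares of all genes tested. The 1 called lower in hypoxia and higher with 32-134D was PPARGC1B, a coactivator named after its values were seen. Its mean level was below 1 CPM in each group, at 0.70 ± 0.37 CPM in vehicle at 20% O2, 0.094 ± 0.043 CPM at 1% O2 and 0.83 ± 0.37 CPM with 32-134D (SD, n = 3). PPRC1 moved the same way short of a call (-0.33, FDR 0.00566, in hypoxia and 0.40, FDR 0.00152, with 32-134D). NRF1, whose core stands in the promoters of TFB1M, TFB2M and POLRMT shown above, had a log2 fold change of 1.04 (FDR 6.8e-08) in hypoxia and -0.67 (FDR 7.11e-06) with 32-134D. The GABP subunit genes GABPB1 (1.06, FDR 3.15e-07) and GABPA (0.75, FDR 3.1e-06) were called higher in hypoxia too. Binding of these factors was not measured here, and their part in the changes of the 10 genes was not tested.

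**Figure D5:**
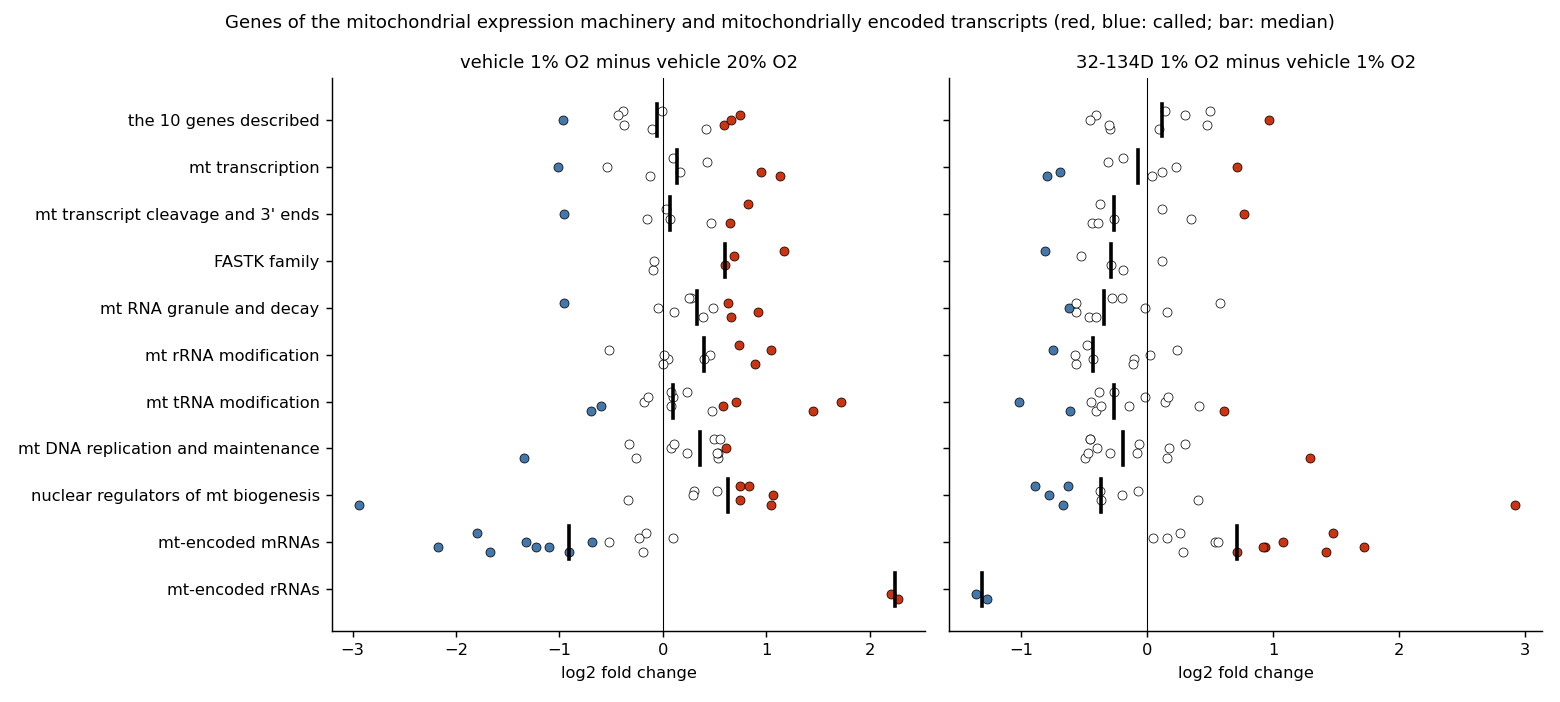
Log2 fold changes of the 10 genes, of the other genes of the mitochondrial expression machinery by list and of the mitochondrially encoded RNAs, in hypoxia on the left and with 32-134D on the right, with red and blue for called genes and a bar at each median. The 13 messenger RNAs have a median of -0.91 in hypoxia and 0.71 with 32-134D, and the 2 ribosomal RNAs one of 2.24 and -1.31.

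SLIRP has a head-to-head neighbour, ALKBH1, the transfer RNA demethylase named above, and the 50 bases between their annotated exons are shown because the genes on either side differed in their response. Lower case is used throughout, since no searched core was found in it letter for letter. Shorter parts of a core, such as the ccggaa in this stretch, were not counted.
Between ALKBH1 and SLIRP, chr14:77708021-77708070, strand of SLIRP: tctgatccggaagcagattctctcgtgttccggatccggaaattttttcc
ALKBH1 stood at 10.42 ± 0.77 CPM in vehicle at 20% O2, 34.62 ± 1.85 CPM at 1% O2 and 17.15 ± 0.36 CPM with 32-134D (SD, n = 3), against 27.79 ± 4.13, 25.88 ± 0.78 and 27.64 ± 0.59 CPM for SLIRP. The pair was chosen after its values had been seen.

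The genes most like each of the 10 in pattern were taken by Pearson's r of log2 CPM over the 9 libraries among 13910 genes, which is a description, since the points share the groups and the scaling. The nearest was PTBP1 for POLRMT (r = 0.999), PTGES3 for TFAM (0.999), SMOC1 for TFB1M (0.996), BRIX1 for TFB2M (0.994) and BCAT1 for LRPPRC (0.995), with PNPT1 the next nearest to LRPPRC (0.993). LRPPRC was in turn the second nearest to PNPT1 (0.993), after MAP4K3 (0.994). TMEM43 was nearest to SUPV3L1 (0.993) and CHFR to ELAC2 (0.994). SLIRP and FASTKD2, whose FDR was above 0.05 in each comparison of the fit used for the calls, had no gene above 0.927, with PLGRKT (0.91) and FOSL1 (0.927) nearest.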

How the data were processed

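Gene expression was measured by RNA-seq (total RNA, NovaSeq6000) in 9 cultures of Hep3B cells, 3 in each of 3 groups taken from the sample labels. The counts are those the authors deposited, unnormalized reads per Ensembl gene in 1 table, made per the study's methods with FastQC, Bbduk, STAR on an Ensembl GRCh38 reference and featureCounts. Versions, strand setting and RNA selection are not given in the sources used here. The labels name DMEM/F12 as the medium. All 9 columns were matched to samples by name and 0 were left over. Replicate pairs differed by more than counting error (chi-square per degree of freedom 1.62 to 36.4, the highest values from replicate 3 of 32-134D). Depth was 6013980 to 40549699 counted reads per library, and mitochondrial genes took 3.826% to 4.575% of them.

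The 22672 genes whose counts reached a sum of 10 over the libraries entered a quasi-likelihood model of the 3 groups (edgeR 4.0.16 under R 4.3.3, TMM factors, no block). The thresholds for a call, FDR below 0.05 and more than 1.5-fold, are those of the study, which used DESeq2. The alternatives were DESeq2 1.42.0, other scalings, filters and thresholds, fits of the compared groups alone, a replicate block and each library left out. The scripts were tested on simulated data. The 10 genes, the lists and the markers were chosen with earlier results of these data known. Genes outside the 10 were named by rule: up to 4 called genes of a list with the smallest p in hypoxia, and the genes nearest in pattern. TIAM2, SNW1, C14orf178 and MDH1B were added because their exons overlap a gene of the 10. ALKBH1 beside SLIRP, PPARGC1B, PPRC1 and the uncalled genes for cleavage and 3′ ends were added after their values were seen. Positions and exon lengths are from GENCODE version 29 on GRCh38, and promoters from RefSeq on GRCh38.p14. Protein sequences were not used here.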

Additional observations from a re-analysis of the deposited data

How the results depend on the processing

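Single-gene log2 fold changes of the 10 genes were recomputed under every alternative: 498 values stayed on the same side of 0 and of the threshold, 14 became weaker, 11 stronger and 17 changed sign. The genes called higher in hypoxia, 3 with TMM, were 0 with total library size, upper quartile scaling or a fold change above 2, 1 where each library had to hold 10 counts and 2 to 3 with 1 library left out. The genes called lower in hypoxia, 1 with TMM, were 4 with total library size or no fold change threshold, 2 with upper quartile scaling, 0 with a fold change above 2 and 1 whichever library was left out. With 32-134D against vehicle at 1% O2, 1 gene was called higher, against 3 with total library size or upper quartile scaling, 2 with at least 10 counts in every library, 4 without a fold change threshold, 0 above 2-fold and 1 to 3 with 1 library left out (3 without replicate 1 of 32-134D). None was called lower, against 4 without a fold change threshold. Against vehicle at 20% O2, 0 were called higher, against 1 without a fold change threshold.

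The changes of sign were all of values near 0 that were not called. In hypoxia FASTKD2 was 0.018 without a filter on low counts and 0.017 and 0.008 with replicates 2 and 3 of vehicle at 1% O2 left out (range -0.075 to 0.017 over the left-out libraries). For 32-134D against vehicle at 20% O2, TFB1M was 0.007 with DESeq2 and with RLE scaling, 0.014 without a filter and ran from -0.174 to 0.098 with 1 library left out. In the same comparison SLIRP was 0.002 with DESeq2, 0.001 with RLE scaling, 0.009 without a filter and ran from -0.094 to 0.128 with 1 library left out, and PNPT1 ran from -0.02 (without replicate 3 of 32-134D) to 0.161. The cause of these changes was not tested.

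No pairing by the replicate numbers of the labels was evident in the deviations from the group means. These correlated from -0.144 to 0.062 between libraries with the same number and from -0.146 to 0.163 between others. With 3 libraries per group such values cannot show whether samples with the same number were handled together. With the replicate number as a block, the 10 genes had the same counts of calls in the 3 comparisons (3 higher and 1 lower in hypoxia, 1 and 0 with 32-134D, 0 and 0 against vehicle at 20% O2), and TFB1M was -0.96 in hypoxia and 0.957 with 32-134D. Over all genes, the 117 called lower against vehicle at 20% O2 ran from 35 to 198 with 1 library left out. They were 35 without replicate 2 of vehicle at 20% O2, 41 without its replicate 3, 46 without replicate 3 of vehicle at 1% O2 and 198 without replicate 1 of 32-134D. The shallowest library, replicate 2 of vehicle at 20% O2, held 126 reads of TFB2M and 136 of TFB1M, which limits the precision of their normoxic levels. The difference of the LRPPRC to SLIRP ratio ran from -0.404 to -0.218 in hypoxia, from 0.322 to 0.448 with 32-134D and from -0.001 to 0.184 against vehicle at 20% O2 with 1 library left out.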
